A study of Arabidopsis thaliana with 6 samples.

Results

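PIF genes and the helix-loop-helix partners that oppose them were followed in Arabidopsis seedlings overexpressing EsANAC029. The 10 genes were taken by locus from the 32962 genes of the table. They are PIF1, PIF3, PIF4, PIF5, PIF7 and PIF8, the atypical factors HFR1, PAR1 and PAR2, and PIL1. PIF7 stands in the table as BHLH72 and PIF8 as UNE10. The mRNA of 25-day-old seedlings was sequenced from 3 EsANAC029-OE libraries and 3 Col-0 wild-type libraries, all from plants kept at 25 °C in days of 16 h light and 8 h dark. EsANAC029-OE overexpresses a NAC transcription factor that the series title assigns to the grass Elymus sibiricus, and Col-0 is the Arabidopsis wild type. The labels name neither the promoter of the transgene nor the number of transgenic lines. They do not give pooling of plants or the hour of harvest either. By its title, the study concerns how EsANAC029 acts in the light response, and the comparison asks here how PIF pathway transcripts stand in the overexpressor.

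PHYTOCHROME-INTERACTING FACTORS are basic helix-loop-helix (bHLH) transcription factors that bind G-box and related DNA elements and drive elongation and auxin production in darkness, shade and warmth. Light-activated phytochrome binds PIF proteins and leads to their phosphorylation and, for most of them, degradation. HFR1, PAR1 and PAR2 are helix-loop-helix proteins that do not bind DNA in the typical way, and they pair with PIFs and keep them from their targets. Transcripts of HFR1 and PIL1 are themselves raised by PIFs in shade, so such genes are both outputs and brakes of the pathway. The clock also controls PIF4 and PIF5 transcription, in part through the evening complex of ELF3, ELF4 and LUX.

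Depth was close among libraries, with 19608819 to 21715274 reads in genes. Levels are in FPKM, which scales fragments by both the length of a gene and the effective size of a library, so that levels of different genes can be compared. Over the 17221 genes tested, EsANAC029-OE replicate 1 correlated with Col-0 libraries at 0.691 to 0.734 on the log2(FPKM + 1) scale, while replicates 2 and 3 did so at 0.857 to 0.899. Results are therefore also given without replicate 1 where that changed a call. The 4 leaf markers, genes of Rubisco, Rubisco activase and LHCB1, summed to 2100 FPKM in EsANAC029-OE replicate 1, 7778 FPKM in replicate 2 and 14243 FPKM in replicate 3, against 22396 to 27583 FPKM in Col-0. The 7 root markers summed to 0.0619 to 1.81 FPKM in EsANAC029-OE and 0.256 to 1.31 FPKM in Col-0, with 6 of them listed at 0 in EsANAC029-OE replicate 1 and in Col-0 replicate 2. Root-specific transcripts were thus at or near 0 although the tissue label reads seedlings. The 5 flower markers summed to 0.438 to 3.79 FPKM in EsANAC029-OE and 0.673 to 1.24 FPKM in Col-0. In RNA from tissue of many cell types, fewer cells of a type and less RNA per cell cannot be told apart. The part that the lower leaf markers had in the results below was not tested.

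PIF4, PIF5 and HFR1 fell in EsANAC029-OE, 3 of the 10 genes, and none of the 10 rose. Differences were tested with limma on log2(FPKM + 1) over all 17221 genes, and called where the Benjamini-Hochberg adjusted p was under 0.05. Of all genes tested 7.89% were called, 4.31% higher and 3.58% lower in EsANAC029-OE (743 and 616 genes). Scaling by library size alone gave 2749 higher and 377 lower genes and the same 3 of the 10. On the reads recovered from the values, limma-voom also called PIF4, PIF5 and HFR1, where it called 2.13% of all genes lower. Without Col-0 replicate 3 none of the 10 was called (59 calls among all genes), and without EsANAC029-OE replicate 2, Col-0 replicate 1 or Col-0 replicate 2 there was 1, PIF4. Without EsANAC029-OE replicate 3 the 3 called were PIF4, PIF7 and HFR1. The share of all genes called lower moved with the library left out as well. It was 9.51% without EsANAC029-OE replicate 1, 0.419% without replicate 2 and 3.52% without replicate 3. Without Col-0 replicates 1, 2 and 3 in turn it was 0.23%, 0.165% and 0.0648%. For 8 of the 10 genes the 3 EsANAC029-OE values lay below all 3 Col-0 values, as they did for 20.3% of all genes tested. PIF3 and PIF8 were the 2 whose groups overlapped. The median log2 fold change of the 10 was −1.45, beside −0.00914 over all genes tested. All 10 passed the filter of 1 FPKM in at least 3 libraries. HFR1 passed through its Col-0 libraries alone, so that its groups had to differ. Of the other 9 genes 2 were called and 7 had EsANAC029-OE values below all Col-0 values. The median log2 fold change of those 9 genes was −1.31.

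**Figure D1:**
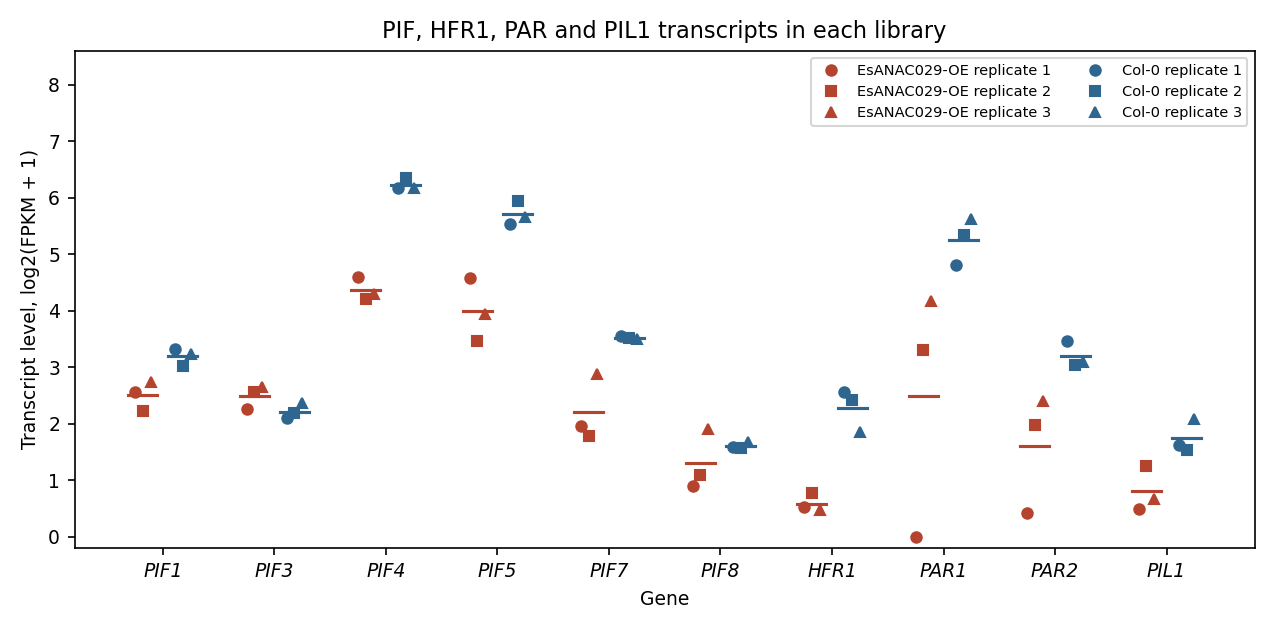
Transcript level of each of the 10 genes, as log2(FPKM + 1), in every library; short lines are the means of the 3 libraries of a group. PIF4, PIF5 and PAR1 lead in Col-0, EsANAC029-OE points lie below Col-0 points for 8 genes, and PAR1 is at 0 in EsANAC029-OE replicate 1.

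Among the PIFs, PIF4 and PIF5 were the most abundant in both genotypes. PIF4, the factor best known for elongation in warmth and shade (AT2G43010, chromosome 2, 17886101 to 17889087, plus strand), was at 23.0, 17.5 and 18.5 FPKM in EsANAC029-OE, in the order of replicates 1 to 3 used throughout, against 71.0, 80.6 and 70.8 FPKM in Col-0. The groups were far apart, and each was tight. Its mean was 19.7 ± 2.95 FPKM in EsANAC029-OE and 74.1 ± 5.58 FPKM in Col-0 (SD, n = 3 each), so that EsANAC029-OE held 26.5% of the Col-0 level. Its log2 fold change of −1.87 (SE 0.17, adjusted p = 0.00605 by limma) ranked 64 of all genes by p. Without Col-0 replicate 3 it was −1.90, with an adjusted p of 0.0568 by limma.

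PIF5, a close relative of PIF4 that also promotes growth and leaf senescence in the dark (AT3G59060, chromosome 3, 21827905 to 21830837, minus strand), was at 22.9, 9.95 and 14.3 FPKM in EsANAC029-OE, against 45.5, 60.3 and 49.7 FPKM in Col-0. EsANAC029-OE replicate 1 was the highest of its group and lay below the lowest Col-0 library. The fitted log2 fold change, −1.73 (SE 0.30), was called by limma at an adjusted p of 0.0297. Without EsANAC029-OE replicate 1 it was −2.02 (limma adjusted p = 0.00696). Without any 1 of the other 5 libraries the adjusted p by limma was 0.0598 to 0.128, and PIF5 was not called.

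PIF7, a PIF that stays stable in light and leads the early shade response (AT5G61270, chromosome 5, 24638491 to 24640765, minus strand), was at 2.90, 2.44 and 6.36 FPKM in EsANAC029-OE, against 10.7, 10.4 and 10.3 FPKM in Col-0. The Col-0 libraries lay within 1 FPKM of each other, and EsANAC029-OE replicate 3 was the one nearest to them. With a log2 fold change of −1.31 (SE 0.31) PIF7 lay just outside the threshold (adjusted p = 0.0536 by limma). It was called without EsANAC029-OE replicate 3, at −1.65 (limma adjusted p = 0.0309). PIF7 overlaps AT5G61260 on the opposite strand by 318 bases. Reads of the pair cannot be told apart without strand. AT5G61260 stood at 0.112 to 2.29 FPKM in EsANAC029-OE and at 0.355 to 0.407 FPKM in Col-0.

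PIF1, which holds back seed germination and chlorophyll synthesis in the dark (AT2G20180, chromosome 2, 8704024 to 8707009, minus strand), was at 4.90, 3.68 and 5.62 FPKM in EsANAC029-OE, against 8.99, 7.09 and 8.40 FPKM in Col-0. The groups did not overlap, and the log2 fold change of −0.68 (SE 0.20) missed the threshold (adjusted p = 0.0846 by limma). By library size alone it was −0.37. The gene that overlaps PIF1 on the opposite strand, AT2G20170, was listed at 0 in all 6 libraries.

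PIF3, the founding member of the family (AT1G09530, chromosome 1, 3075768 to 3079654, plus strand), was at 3.77, 4.92 and 5.24 FPKM in EsANAC029-OE, against 3.26, 3.55 and 4.12 FPKM in Col-0. It was the one gene of the 10 with a higher mean in EsANAC029-OE, and its groups overlapped. With a log2 fold change of 0.28 (SE 0.19) it was not called (adjusted p = 0.376 by limma), and by library size alone it was 0.57. PIF8, a PIF whose roles are less well known (AT4G00050, chromosome 4, 17639 to 20183, plus strand), was at 0.854, 1.12 and 2.75 FPKM in EsANAC029-OE, against 2.02, 1.96 and 2.19 FPKM in Col-0. EsANAC029-OE replicate 3 lay above every Col-0 library and the other two lay below (log2 fold change −0.32, SE 0.30, limma adjusted p = 0.524). The log2 fold change of PIF8 was −0.11 without EsANAC029-OE replicate 1, −0.62 without replicate 3 and −0.08 by library size alone, and it was not called in any of these.

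Of the atypical factors HFR1 fell, while PAR1 and PAR2 missed the threshold. HFR1, which forms heterodimers with PIFs that do not bind DNA (AT1G02340, chromosome 1, 465616 to 467880, minus strand), was at 0.429, 0.706 and 0.379 FPKM in EsANAC029-OE, against 4.87, 4.33 and 2.60 FPKM in Col-0. These values rest on 15, 28 and 13 reads in EsANAC029-OE and on 148, 123 and 73 reads in Col-0. The EsANAC029-OE mean was 12.8% of the Col-0 mean, the lowest share of the 10 genes. Its log2 fold change was −1.69 (SE 0.25, adjusted p = 0.0201 by limma). The pseudocount of 1 understates a change at such levels, and with 0.1 in its place the log2 fold change was −2.73 (limma adjusted p = 0.0210). Without any filter on low values HFR1 was also called (limma adjusted p = 0.0319), and without EsANAC029-OE replicate 2 it was not (limma adjusted p = 0.0597). Without any 1 Col-0 library it fell below the filter and was not tested.

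PAR1 and PAR2 are short proteins encoded by a single exon and limit shade elongation. PAR1 (AT2G42870, chromosome 2, 17836416 to 17837618, minus strand) was at 0, 8.81 and 17.0 FPKM in EsANAC029-OE, against 27.1, 39.3 and 48.4 FPKM in Col-0. No read was counted in EsANAC029-OE replicate 1, where a count of 0 allows up to 0.109 FPKM at a floor of 3 reads, while replicates 2 and 3 had 276 and 461 reads and Col-0 had 651, 882 and 1074. Such floors cover counting error only. All 3 EsANAC029-OE libraries lay below Col-0, but they were so far apart (8.61 ± 8.51 FPKM, SD, n = 3) that PAR1 was not called (log2 fold change −2.77, SE 1.04, adjusted p = 0.146 by limma). Without EsANAC029-OE replicate 1 it was called at −1.52 (limma adjusted p = 0.0383), and by limma-voom it was −4.69 and not called.

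PAR2 (AT3G58850, chromosome 3, 21759350 to 21760390, minus strand) was at 0.335, 2.91 and 4.31 FPKM in EsANAC029-OE, against 10.003, 7.21 and 7.50 FPKM in Col-0. These values rest on 8, 79 and 101 reads in EsANAC029-OE and on 208, 140 and 144 reads in Col-0. As with PAR1, replicate 1 was lowest and replicate 3 nearest to Col-0. PAR2 was not called (log2 fold change −1.60, SE 0.51, adjusted p = 0.108 by limma), except without EsANAC029-OE replicate 1, where it stood at −1.01 (limma adjusted p = 0.0324). Over the 10 genes, 5 were called without that library (PIF4, PIF5, HFR1, PAR1 and PAR2, all lower), where 9.51% of the 16795 genes tested were called lower.

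PIL1, a bHLH factor known as an early shade marker (AT2G46970, chromosome 2, 19295431 to 19297858, minus strand), was at 0.404, 1.38 and 0.592 FPKM in EsANAC029-OE, against 2.06, 1.90 and 3.21 FPKM in Col-0. The groups did not overlap at these low levels, which rest on 16 to 62 reads in EsANAC029-OE and 61 to 102 reads in Col-0. Its log2 fold change of −0.94 (SE 0.28) missed the threshold (adjusted p = 0.0915 by limma). With a pseudocount of 0.1 it was −1.60 and by limma-voom −1.70, and PIL1 was not called in either.

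**Figure D2:**
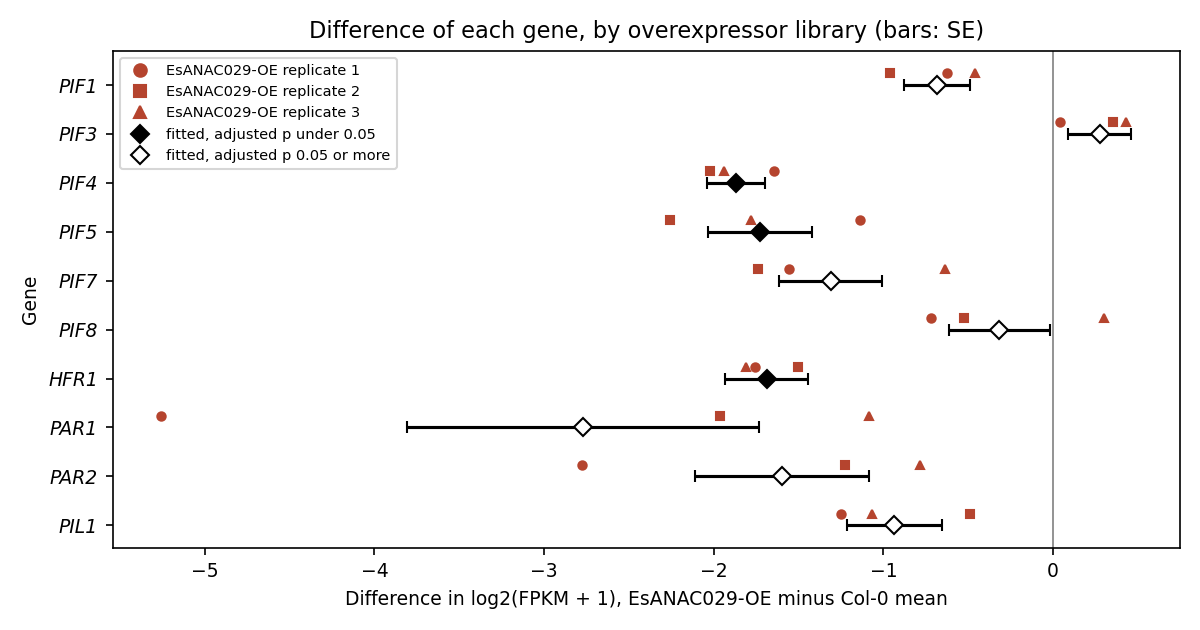
Difference in log2(FPKM + 1) from the Col-0 mean for each gene; coloured points are the 3 EsANAC029-OE libraries, and diamonds with bars are the fitted log2 fold change and its SE. Filled diamonds (PIF4, PIF5 and HFR1) passed the adjusted p of 0.05. The libraries are close together for PIF4 and HFR1 and far apart for PAR1 and PAR2, where replicate 1 is lowest.

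The order of levels in Col-0 was PIF4 (74.1 FPKM), PIF5 (51.8), PAR1 (38.3), PIF7 (10.5), PAR2 (8.24), PIF1 (8.16), HFR1 (3.93), PIF3 (3.65), PIL1 (2.39) and PIF8 (2.05). Neighbours overlapped in their library values for PIF5 and PAR1, PAR2 and PIF1, HFR1 and PIF3, and PIL1 and PIF8, and the other neighbours did not. In EsANAC029-OE each gene overlapped the next one in the order, from PIF4 (19.7 FPKM) and PIF5 (15.7) down to PIL1 (0.792) and HFR1 (0.505). PIF1 (4.74 FPKM) and PIF3 (4.64) stood side by side there, as they did not in Col-0.

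The summed level of the 6 PIF genes was 58.3, 39.6 and 52.8 FPKM in EsANAC029-OE, against 141, 164 and 146 FPKM in Col-0. PIF4 and PIF5 together made up 78.7%, 69.3% and 62.2% of that sum in EsANAC029-OE and 82.3%, 86.0% and 82.8% in Col-0. The share of PIF3 was 6.46%, 12.4% and 9.92% in EsANAC029-OE, against 2.31%, 2.17% and 2.83% in Col-0. The level of PIF3 itself was not called, and those of PIF4 and PIF5, which make up most of the sum, were. HFR1, PAR1 and PAR2 summed to 0.764, 12.4 and 21.7 FPKM in EsANAC029-OE, against 42.0, 50.8 and 58.5 FPKM in Col-0. The ratio of the PIF sum to the sum of the 3 atypical genes was 76.3, 3.18 and 2.43 in EsANAC029-OE and 3.37, 3.22 and 2.49 in Col-0. EsANAC029-OE replicates 2 and 3 were therefore near the Col-0 libraries in this ratio, and replicate 1, with no PAR1 read, was far above them.

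**Figure D3:**
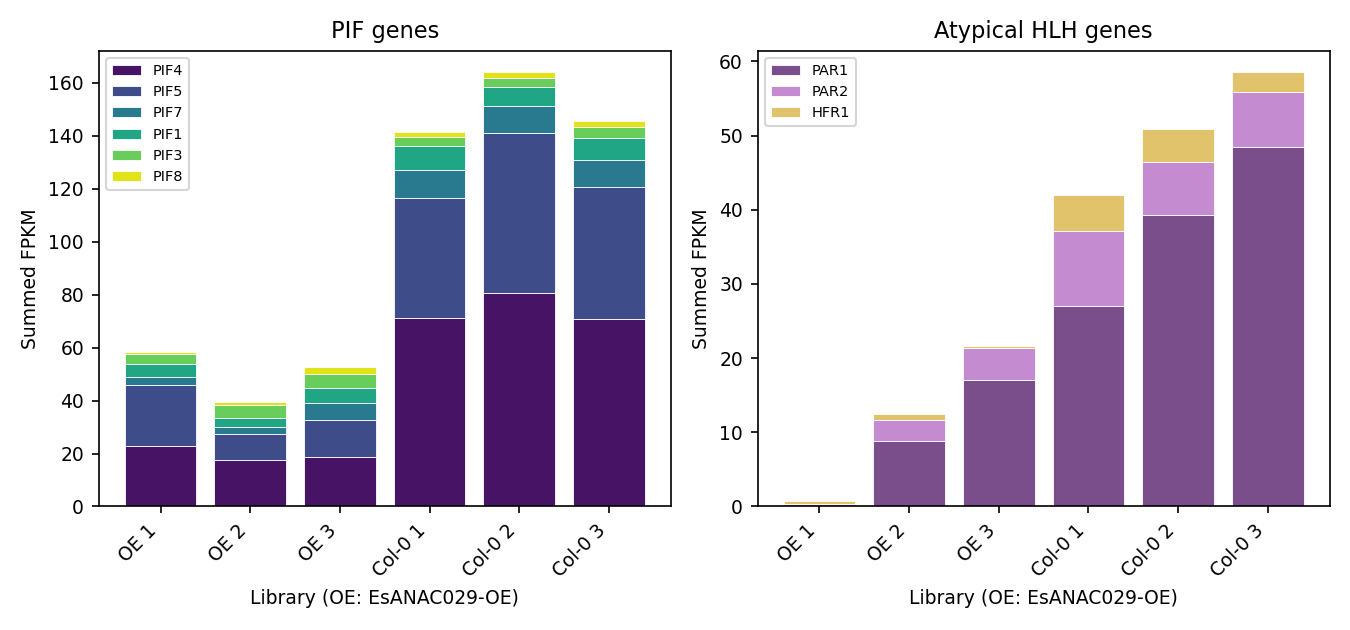
Summed FPKM of the 6 PIF genes (left) and of HFR1, PAR1 and PAR2 (right) in each library, with the part of each gene in colour. The PIF sum is 39.6 to 58.3 in EsANAC029-OE and 141 to 164 in Col-0, and the atypical sum is 0.764 in EsANAC029-OE replicate 1.

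Pairs of these genes were compared by the difference of their log2(FPKM + 1) values within a library, over 5 pairs, with two-sided exact permutation tests. With 3 libraries against 3 the smallest p possible is 0.1, so no pair could pass 0.05. PIF4 exceeded PIF5 by 0.37 ± 0.37 in EsANAC029-OE and 0.51 ± 0.11 in Col-0 (SD, n = 3 each), a difference of −0.14 (exact permutation p = 0.6, adjusted 0.6). The EsANAC029-OE ratios spread from 0.01 to 0.75 and took in those of Col-0. The difference PIF3 minus PIF1 was −0.02 ± 0.33 in EsANAC029-OE and −0.98 ± 0.22 in Col-0 (exact permutation p = 0.1, adjusted 0.25, n = 3 each). PIF8 minus PIF7 was −0.91 ± 0.19 in EsANAC029-OE and −1.91 ± 0.07 in Col-0 (exact permutation p = 0.1, adjusted 0.25, n = 3 each). In both of these pairs the 3 EsANAC029-OE ratios lay above the 3 Col-0 ratios. The PAR1 to PAR2 and HFR1 to PIL1 differences moved by −1.17 and −0.75 and had overlapping groups (exact permutation p = 0.2 and 0.3, adjusted 0.333 and 0.375, n = 3 each). Leaving out EsANAC029-OE replicate 1, which had no PAR1 read, brought the PAR1 to PAR2 difference to −0.52, and leaving out replicate 3 brought it to −1.61. The HFR1 to PIL1 difference was −0.55 without Col-0 replicate 1 and −1.13 without Col-0 replicate 3 or with a pseudocount of 0.1. The PIF4 to PIF5 difference was −0.33 without EsANAC029-OE replicate 2 and 0.04 without replicate 1.

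In the genome, PAR1 lies 48.5 kb from PIF4 on chromosome 2 with 18 genes of the table between them, and PAR2 lies 67.5 kb from PIF5 on chromosome 3 with 22 genes between them. The 3 called genes are shown with the promoter window that RefSeq's TAIR10.1 assembly gives, from 250 bases before the gene start to 50 after it, and PIF7 is added because its window holds the PIF element PBE-box. Capitals mark a G-box (CACGTG) or a PBE-box (CACATG, or CATGTG on the other strand), searched on both strands; each sequence reads 5′ to 3′ on the gene's strand.

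PIF4, chr2:17885851-17886150, plus strand: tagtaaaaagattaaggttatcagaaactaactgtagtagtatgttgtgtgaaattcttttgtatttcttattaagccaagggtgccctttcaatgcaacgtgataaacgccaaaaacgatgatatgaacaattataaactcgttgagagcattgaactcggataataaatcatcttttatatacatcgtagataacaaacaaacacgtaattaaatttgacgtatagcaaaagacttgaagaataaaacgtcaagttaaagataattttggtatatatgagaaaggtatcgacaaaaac

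PIF5, chr3:21830788-21831087, minus strand: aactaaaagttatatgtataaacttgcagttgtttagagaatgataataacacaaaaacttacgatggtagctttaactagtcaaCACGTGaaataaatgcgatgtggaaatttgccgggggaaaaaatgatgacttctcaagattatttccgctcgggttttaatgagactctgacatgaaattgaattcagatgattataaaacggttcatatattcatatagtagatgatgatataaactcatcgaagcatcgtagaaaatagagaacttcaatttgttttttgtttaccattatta

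HFR1, chr1:467831-468130, minus strand: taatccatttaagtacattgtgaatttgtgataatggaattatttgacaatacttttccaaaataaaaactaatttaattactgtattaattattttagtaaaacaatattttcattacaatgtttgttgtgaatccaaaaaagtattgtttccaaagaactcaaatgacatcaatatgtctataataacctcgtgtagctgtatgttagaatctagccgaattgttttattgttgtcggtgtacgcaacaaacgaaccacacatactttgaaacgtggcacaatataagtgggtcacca

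PIF7, chr5:24640716-24641015, minus strand: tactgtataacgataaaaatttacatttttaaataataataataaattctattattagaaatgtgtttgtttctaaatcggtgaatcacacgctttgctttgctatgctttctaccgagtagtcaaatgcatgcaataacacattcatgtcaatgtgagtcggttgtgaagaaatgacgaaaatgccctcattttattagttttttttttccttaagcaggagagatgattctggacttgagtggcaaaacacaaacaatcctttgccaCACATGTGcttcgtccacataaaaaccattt

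PIF5 holds 1 G-box, 165 bases before its start. PIF7 holds the PBE-box on both strands in overlapping copies just after its start, and PAR2 holds 1 PBE-box 128 bases before its start. None of the other 7 windows, those of PIF4 and HFR1 among them, holds either set of letters. Of the 27419 protein-coding windows of that length, 7.67% hold a G-box and 12.9% a PBE-box. The evening element AAAATATCT and the letters GATACG, which LUX can bind, were searched on both strands as well and stand in 2.82% and 5.55% of all windows. None of the windows of the 10 genes held either. Other forms of a LUX site and sequence outside the windows were not searched, so LUX binding to these genes was not tested.

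Genes that PIFs are known to act on, with shade-response genes, gave 5 calls, all lower in EsANAC029-OE, and 25 of those tested had a log2 fold change below 0. Over all 17221 genes tested, 8726 had a log2 fold change below 0. Of 31 listed genes 27 were tested, 5 fell and none rose, and 22 did not pass the test; 3.58% of all genes tested were called lower. The median log2 fold change was −1.63, and for 16 of the 27 the EsANAC029-OE values lay below all Col-0 values, against 20.3% of all genes tested. SAUR19, which was not called, passed the filter through Col-0 alone. For the other 26 genes the median was −1.59, and 15 had EsANAC029-OE values below all Col-0 values. YUC8, an auxin synthesis gene that PIFs activate, was at 0.0251, 0.819 and 1.95 FPKM in EsANAC029-OE, against 4.79, 8.59 and 4.44 FPKM in Col-0 (log2 fold change −1.93, SE 0.44, limma adjusted p = 0.0497). ACS8, an ethylene precursor synthase, was at 1.25 ± 0.403 FPKM in EsANAC029-OE and 10.5 ± 5.06 FPKM in Col-0 (−2.26, limma adjusted p = 0.0275). CYP90B1, the brassinosteroid synthesis enzyme DWF4, was at 3.98 ± 1.65 FPKM in EsANAC029-OE and 15.1 ± 0.774 FPKM in Col-0 (−1.76, limma adjusted p = 0.0252). SAUR21, a small auxin-up RNA with near-identical copies that can share its reads, was at 1.19 ± 1.07 FPKM in EsANAC029-OE and 10.4 ± 3.35 FPKM in Col-0 (−2.48, limma adjusted p = 0.0342).

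The fifth called gene, CHLH, is of another kind, since PIFs are known to hold chlorophyll synthesis genes down in dark-grown seedlings. It was at 84.8 ± 41.5 FPKM in EsANAC029-OE and 499 ± 35.3 FPKM in Col-0 (log2 fold change −2.68, limma adjusted p = 0.0237). PORC, a protochlorophyllide reductase gene also on the list, was at 59.0 ± 39.4 FPKM in EsANAC029-OE and 130 ± 14.8 FPKM in Col-0. It did not pass the test (limma adjusted p = 0.183). The genes called lower included PIF-activated ones and CHLH, whose repression by PIFs is known from dark-grown seedlings. The part of PIF levels in these calls was not tested. IAA29, HAT1 and PRE1 were picked after their values were seen, as targets with large differences that did not pass. IAA29, an auxin response repressor, was at 0.305, 6.04 and 18.4 FPKM in EsANAC029-OE, against 51.0, 43.4 and 53.2 FPKM in Col-0 (limma adjusted p = 0.0863). HAT1, a homeodomain factor, was at 0.362, 10.5 and 13.0 FPKM in EsANAC029-OE, against 56.8, 82.2 and 33.5 FPKM in Col-0 (limma adjusted p = 0.0840). PRE1, a small HLH protein that promotes elongation, was at 0.0509, 3.59 and 6.74 FPKM in EsANAC029-OE, against 26.3, 19.5 and 19.2 FPKM in Col-0 (limma adjusted p = 0.0673). In YUC8, IAA29, HAT1 and PRE1, as in PAR1 and PAR2, EsANAC029-OE replicate 1 was lowest and replicate 3 nearest to Col-0. Not all targets shared this order. In EsANAC029-OE, SOT15 was at 23.8, 7.55 and 0.424 FPKM and CKX5 at 11.1, 3.73 and 0.781 FPKM. Neither passed the test (limma adjusted p = 0.353 and 0.840). Without replicate 1, 14 targets were called (13 lower and 1 higher), where 9.51% of all genes were called lower. Without EsANAC029-OE replicate 3 there were 9, all lower, where 3.52% of all genes were. There was 1 without Col-0 replicate 1 and none without Col-0 replicate 2, Col-0 replicate 3 or EsANAC029-OE replicate 2.

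The phytochrome list holds the 5 red and far-red receptors PHYA to PHYE, which act on PIF proteins, and FHY1 and FHL, which carry phytochrome A into the nucleus. Of these 7 genes 1 fell and none rose, where 3.58% of all genes tested were called lower, and the median log2 fold change was −0.49. PHYA, the far-red receptor, was at 30.5, 20.9 and 22.1 FPKM in EsANAC029-OE, against 54.1, 44.4 and 43.3 FPKM in Col-0 (log2 fold change −0.93, SE 0.20, limma adjusted p = 0.0451). PHYB, the main red-light receptor and the one that acts most on PIF4, was at 16.8, 14.7 and 17.0 FPKM in EsANAC029-OE, against 23.5, 25.8 and 32.4 FPKM in Col-0, and did not pass the test (limma adjusted p = 0.0606). PHYB stood at 59.2% of its Col-0 mean, and PIF4 at 26.5%; the difference between these 2 was not tested. The phytochrome list had 2 calls without EsANAC029-OE replicate 1, both lower, where 9.51% of all genes were called lower, and none without any 1 other library.

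Kinases, ubiquitin ligases, DELLA proteins and other partners that set PIF activity gave 1 call. Of 30 listed genes 26 were tested, 1 fell and none rose, a share near the 3.58% of all genes called lower. The median log2 fold change was −0.23 and became 0.12 when libraries were scaled by size alone, which moved the median of all genes to 0.31. BIM1, a bHLH partner of the brassinosteroid factor BES1, was the one that fell, with 16.8 ± 2.89 FPKM in EsANAC029-OE and 38.7 ± 4.24 FPKM in Col-0 (log2 fold change −1.16, limma adjusted p = 0.0245). Without EsANAC029-OE replicate 1 there were 4 calls, all lower, where 9.51% of all genes were called lower. There was 1 without EsANAC029-OE replicate 3, and without EsANAC029-OE replicate 2 or any 1 Col-0 library none. The most abundant members, the blue-light receptors CRY2 and CRY1, did not pass the test. CRY2 was at 80.7 ± 19.9 FPKM in EsANAC029-OE and 117 ± 6.03 FPKM in Col-0 (limma adjusted p = 0.173). CRY1 was at 56.5 ± 21.2 FPKM in EsANAC029-OE and 84.5 ± 8.33 FPKM in Col-0 (limma adjusted p = 0.224).

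Clock genes bear on PIF4 and PIF5, whose transcripts cycle over the day. Of 11 listed genes 9 were tested, 3 fell and none rose, with a median log2 fold change of −0.86; 3.58% of all genes tested were called lower. CCA1 passed the filter through Col-0 alone, so that its groups had to differ; of the other 8 genes 2 fell, and their median was −0.74. PCL1, the evening complex protein LUX that represses PIF4 and PIF5, was at 17.2, 12.8 and 16.8 FPKM in EsANAC029-OE, against 40.7, 35.8 and 40.8 FPKM in Col-0 (log2 fold change −1.28, SE 0.17, limma adjusted p = 0.0167). PCL1 and PIF4 transcripts were both lower, and the part of PCL1 in the PIF4 level was not tested. APRR5, a repressor of the day phase, was at 15.8 ± 2.78 FPKM in EsANAC029-OE and 29.3 ± 2.45 FPKM in Col-0 (−0.86, limma adjusted p = 0.0430). CCA1, a morning factor, was at 0.236 ± 0.311 FPKM in EsANAC029-OE and 1.81 ± 0.523 FPKM in Col-0 (−1.20, limma adjusted p = 0.0470). APRR1, the evening factor TOC1, was at 95.5 ± 19.9 FPKM in EsANAC029-OE and 84.4 ± 4.84 FPKM in Col-0 (limma adjusted p = 0.660). ELF4, the partner of LUX, was at 70.8 ± 9.43 FPKM in EsANAC029-OE and 72.2 ± 1.30 FPKM in Col-0 (limma adjusted p = 0.908). Without EsANAC029-OE replicate 1, 6 clock genes were called, all lower, where 9.51% of all genes were. Without replicate 3 there was 1, while without EsANAC029-OE replicate 2 or any 1 Col-0 library there was none. The part of clock phase in the PIF4 and PIF5 difference was not tested.

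**Figure D4:**
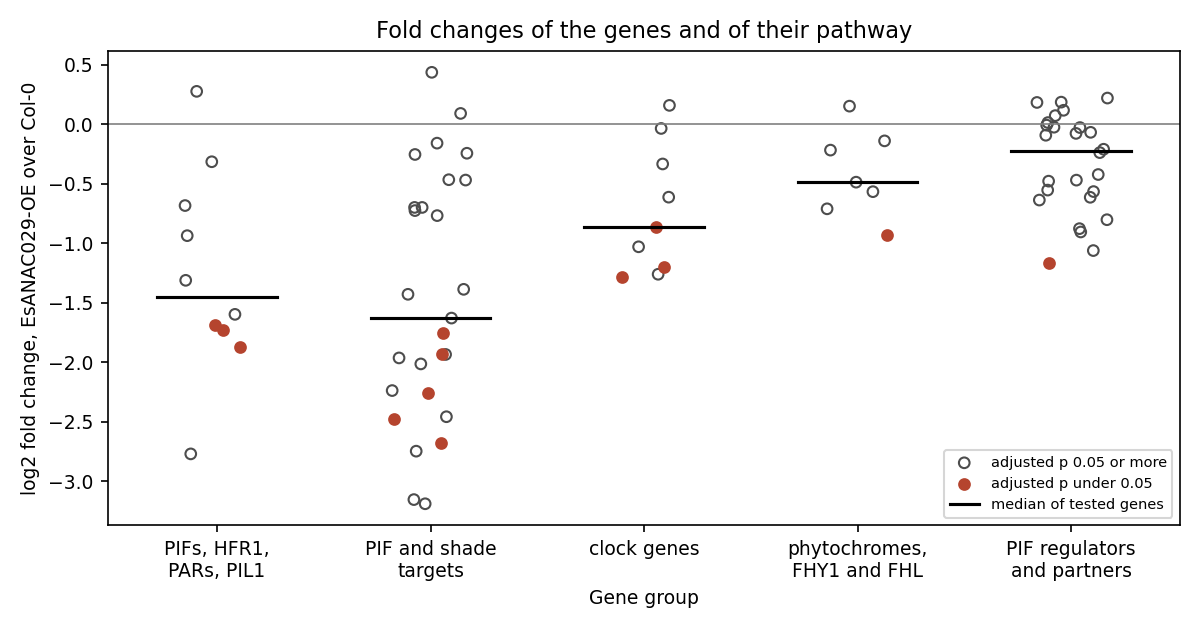
Log2 fold change, EsANAC029-OE over Col-0, of each tested gene in 5 groups; filled points passed an adjusted p of 0.05 and black lines are medians. The medians are −1.45 for the 10 genes, −1.63 for PIF and shade targets, −0.86 for clock genes, −0.49 for the phytochrome list and −0.23 for PIF regulators and partners. HFR1, SAUR19 and CCA1 passed the filter through Col-0 alone. Without them the medians are −1.31 for the 10 genes, −1.59 for targets and −0.74 for clock genes.

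Other helix-loop-helix genes served as a further comparison. The table description names this domain for 120 genes, which leaves out some of the 10 themselves, so the list is not complete. Helix-loop-helix genes without that description were not counted, whichever way they moved. Of the 113 described genes outside the 10, 52 were tested, 2 fell (BHLH87 and BIM1) and none rose. That share was near the 3.58% of all genes called lower. The median log2 fold change of the 52 was −0.15, against −1.45 for the 10 and −1.31 for the 9 without HFR1. BHLH87 was named after its values were seen and passed the filter through Col-0 alone. Of the other 51 genes 1 fell, and their median was −0.14. Of 7 other genes of the PIF branch of the family 1 was tested, SPT, a regulator of fruit and seedling growth, which was at 1.47 ± 0.812 FPKM in EsANAC029-OE and 1.22 ± 0.297 FPKM in Col-0 (limma adjusted p = 0.838). PIF6 was at 0.0492 to 0.128 FPKM in EsANAC029-OE and at 0 to 0.111 FPKM in Col-0, below the level that was tested.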

How the data were processed

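The table holds 6 libraries of paired-end Illumina RNA-seq, grouped by the genotype in the titles. The submitters' processing notes name TAIR10, HISAT2, edgeR and CASAVA 1.8. The tools' roles, the read counter, strandedness and annotation release were not given in the sources used here. Values were deposited by the authors as FPKM, a unit inferred from the values, since 100% of them times the deposited gene length in bases (unit: other) are whole multiples of 1 step per library (tolerance 1e-06). The steps give the reads behind each value, and the scale beyond the library total follows median-of-ratios factors.

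A gene was kept if 3 or more libraries reached 1 FPKM. Genotype was fitted on log2(FPKM + 1) with limma 3.58.1 in R 4.3.3 (trended variance, two-sided, Benjamini-Hochberg over all 17221 genes), after a trial on simulated data. Folds are on this scale and understate changes of low genes. The simulated data took their spread from the Col-0 libraries, so the trial did not cover the wider spread among EsANAC029-OE libraries. As nothing in the labels says that replicates are separate plantings, p-values measure the spread between these libraries. Alternatives were other pseudocounts, filters and scalings, limma-voom on the recovered reads, a replicate block and each library left out.

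The 10 genes and the lists were chosen with earlier results of these data known. All 10 are named; of each list, up to 5 called genes of smallest p and the 2 of highest mean FPKM are named. Gene coordinates equal those of RefSeq TAIR10.1 for the 10 genes (and for 32532 of 32962 loci), whose nuclear chromosomes gave the promoters.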

Additional observations from a re-analysis of the deposited data

How the results depend on the processing

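The direction of all 10 log2 fold changes was the same under each alternative that tested the gene, scaling by library size alone included, which moved the median of all genes to 0.31. PIF4, PIF5 and HFR1 stayed called with a pseudocount of 0.1, without a filter, by limma-voom, with quantile normalization and by library size alone; with a filter of 5 FPKM HFR1 was not tested and 2 genes were called. With the replicate number as a block, none of the 10 was called and 16 genes in all were (PIF4 adjusted p = 0.0626 by limma). That block has no basis in the design: same-numbered libraries of the 2 groups deviated from their group means with correlations of −0.20, −0.05 and −0.10, and none correlated best with its own number. The cause of the changes below was not tested.

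Calls in all were 819 without a filter, 821 by limma-voom and 3126 by library size alone, beside 1359. The target list had 3 calls with a pseudocount of 0.1 or no filter, 2 by limma-voom, 8 with quantile normalization and 0 under the block. Phytochrome calls were 0 without a filter, by limma-voom, by library size alone and under the block. The regulator list had 2 calls by library size alone and 0 under the block, and the clock list had 1 without a filter or by limma-voom and 0 under the block. Leaving out 1 library gave 0 to 5 calls among the 10 genes, 0 to 14 among targets, 0 to 2 among phytochrome genes, 0 to 4 among regulators, 0 to 6 among clock genes and 59 to 2748 in all. It moved the PIF4 to PIF5 difference between −0.33 and 0.04 (without EsANAC029-OE replicate 1 it was 0.0403, the reverse sign). HFR1 and PIL1, at 13 to 62 reads in EsANAC029-OE, are limited by depth. Counts were also low for PAR2 in EsANAC029-OE replicate 1 (8 reads) and for PIF8 in EsANAC029-OE (37, 55 and 117 reads).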

Other observations

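PIF4 had the smallest p of the 10 genes, so the genes most like it were looked up by Pearson correlation of log2(FPKM + 1) over the 6 libraries, as a description. The closest of 17211 other tested genes were BGLU16, a beta-glucosidase (r = 0.998), TOM2A, a tetraspanin (r = 0.996), and AT1G78140, a methyltransferase of the chloroplast by its table description (r = 0.996). BGLU16 was at 22.4, 19.3 and 19.8 FPKM in EsANAC029-OE, against 57.9, 61.4 and 60.4 FPKM in Col-0. In all 788 genes had r above 0.9, and the 2 genotypes lie apart in such genes, so the points share that split. Among the 10 genes the correlation with PIF4 was highest for PIF5 (r = 0.969) and HFR1 (r = 0.952), lower for PAR1 (r = 0.650), and negative for PIF3 (r = −0.762).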
